A study of Mus musculus with 4 samples.

Results

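Mature dendritic cells (mDC) expressing Ccr7 and Fscn1 were described among the CD45+ cells of 2 control skins and 2 skin tumors, each profiled as a droplet-based 3′ single-cell RNA library (10x Genomics). Cells were taken as mDC when they held at least 1000 UMIs (unique molecular identifiers, counting transcripts) with at most 15% of them mitochondrial, at least 3 UMIs of Ccr7, at least 4 of Ccr7 and Fscn1 together, at least 2 of Fscn1 and Cacnb3 together, at least 5 of H2-Ab1 and no more than 2 of Cd3e. The members were thus selected on measured Ccr7, Fscn1, Cacnb3, H2-Ab1 and Cd3e counts. This gate returned 84 of the 13124 cells that passed the first 2 filters. Both groups carried the genotype label C57/BL6. The control skins came from uninoculated mice. The skin tumors had grown from the 2323 cell line injected subcutaneously, a line derived from a mouse skin tumor graft in which the K14 promoter directed Cre to keratinocytes, so both tumors represent 1 line in a syngeneic host. Mice of both sexes and young adult age were used in the study, without a sex or age per library in the labels. The mDC held no Xist UMI in any library, and the sex-linked list, led by the Y-linked Ddx3y, summed to 375 and 317 counts per 1000000 (CPM) in the control skins and 297.5 and 381.5 in the skin tumors. Live CD45+ cells were sorted after collagenase digestion. Nothing in the labels says how many mice stand behind a library, so the spread between libraries may be in part technical.

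Dendritic cells take up antigen in the tissue and, once activated, change their program. They lower uptake, raise antigen presentation and costimulation, acquire CCR7 and follow CCL19 and CCL21 to the draining lymph node, where they prime T cells. Fascin 1, the product of Fscn1, bundles actin in the long processes of such cells. In tumors, mature dendritic cells of this kind are known to combine stimulatory molecules such as CD40 and IL-12 with regulatory ones such as PD-L1, CD200 and IL4I1. In skin they can arise from cDC1, from cDC2 and from Langerhans cells (LC), the langerin-expressing antigen-presenting cells of the epidermis.

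The gate drew 11 cells from control skin 1, 9 from control skin 2, 40 from skin tumor 1 and 24 from skin tumor 2. Most cells with Ccr7, a gene known from naive T cells as well, were removed by the Fscn1 and Cacnb3 requirement. In skin tumor 1, for example, 395 cells held at least 3 Ccr7 UMIs, 346 met the Ccr7 and Fscn1 sum, 57 met the Fscn1 and Cacnb3 sum, and 40 also carried H2-Ab1. In control skin 1 the same steps left 197, 165, 21 and 17 cells, and the Cd3e limit took the last number to 11. With Fscn1 and Cacnb3 summing to 1, just outside the gate, there were 2, 1, 6 and 4 cells in control skin 1, control skin 2, skin tumor 1 and skin tumor 2, and with a sum of 2 or 3, just inside, there were 1, 1, 3 and 7. The last is 29.2% of the mDC of skin tumor 2, and 1, 1, 2 and 6 of these cells carried transcripts of another lineage. At a Ccr7 count of 2, skin tumor 1 held 2 cells outside the gate and the other libraries held 0.

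The 4 marker genes that name these cells were checked per cell. Ccr7, Fscn1 and Cacnb3 chose the cells and are given as a description. The median cell held 31 Ccr7 UMIs in control skin 1, 76 in control skin 2, 26.5 in skin tumor 1 and 16 in skin tumor 2. Median Fscn1 was 16, 14, 16.5 and 7 UMIs, and median Cacnb3 was 5, 8, 8 and 4 UMIs, in the same order. Ccl22, which encodes a chemokine that attracts CCR4-bearing T cells, was not part of the gate. Its median was 24, 44, 6.5 and 10 UMIs per cell, and cells without any Ccl22 UMI numbered 0, 0, 6 and 3. After every cell was thinned to 5000 UMIs, 90.9%, 77.8%, 65.0% and 60.9% of mDC still held Ccl22, against 0.394%, 0.135%, 0.251% and 0% of T-like cells. All 4 markers were therefore present in each library. Median Ccl22 was lower in the tumor libraries, in raw UMIs of cells of unequal depth. The highest Ccl22 count of a cell was 188 and 118 in the control skins and 40 and 128 in the skin tumors.

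Some of the gated cells also carried transcripts of another lineage. A cell was counted as such with at least 10 UMIs of the macrophage C1q genes or at least 5 T cell receptor complex UMIs. At least 5 UMIs of the keratinocyte genes Krt14 and Krt5 together, or of the fibroblast genes Col1a1 and Col3a1 together, also counted. So did at least 10 UMIs of the neutrophil genes S100a8 and S100a9 together, or over 60000 UMIs in all. There were 3 such cells of 11 in control skin 1, 3 of 9 in control skin 2, 8 of 40 in skin tumor 1 and 14 of 24 in skin tumor 2, so that skin tumor 2 stood apart. Macrophage markers summed to 100 UMIs or more in 0, 2, 8 and 11 cells. Foxp3, which marks regulatory T cells, was found in 5 mDC of skin tumor 2 and in 0 of the other libraries. Control skin 2 held a cell of 138755 UMIs, and the keratinocyte markers summed to 1618 CPM there against 37.1 in control skin 1, 13.2 in skin tumor 1 and 23.2 in skin tumor 2. Whether these cells are doublets, neighbors captured together or cells that took up other cells was not tested. Part of the results are given with and without them.

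The depth behind these values was uneven. The mDC held 326126 UMIs in control skin 1, 431033 in control skin 2, 1104990 in skin tumor 1 and 629645 in skin tumor 2. The median mDC held 28948, 40882, 20606 and 23542 UMIs, above the medians of all cells that passed, which were 10991, 11367, 12599 and 13457. The control libraries therefore rest on fewer but deeper cells. Pairs of libraries shared up to 7 cell barcodes, none of them an mDC barcode.

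The share of mDC among all passing CD45+ cells was 0.353% in control skin 1 (95% Clopper-Pearson interval 0.176 to 0.631) and 0.282% in control skin 2 (0.129 to 0.535). It was 0.831% in skin tumor 1 (0.594 to 1.13) and 1.20% in skin tumor 2 (0.768 to 1.77). The tumor mean of 1.01% ± 0.258 (SD, n = 2) was 3.19 times the control mean of 0.318% ± 0.0503 (SD, n = 2), and the libraries of the groups did not overlap. An exact two-sided permutation test gave p = 0.333, which is the smallest value that 2 against 2 libraries allow. The intervals cover counting error only. The gap was narrower among antigen-presenting cells. Of cells with at least 5 H2-Ab1 UMIs and no more than 2 of Cd3e, mDC made up 1.41% and 0.989% in the control skins and 1.44% and 2.26% in the skin tumors, a ratio of 1.54, with overlapping intervals between the groups. Macrophage-like cells numbered 110 and 265 in the controls and 1684 and 588 in the tumors, while T-like cells numbered 812 and 786 against 412 and 116, so the denominators moved with the group. Leaving out the cells with transcripts of another lineage gave 0.257% and 0.188% against 0.665% and 0.498%.

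**Figure D1:**
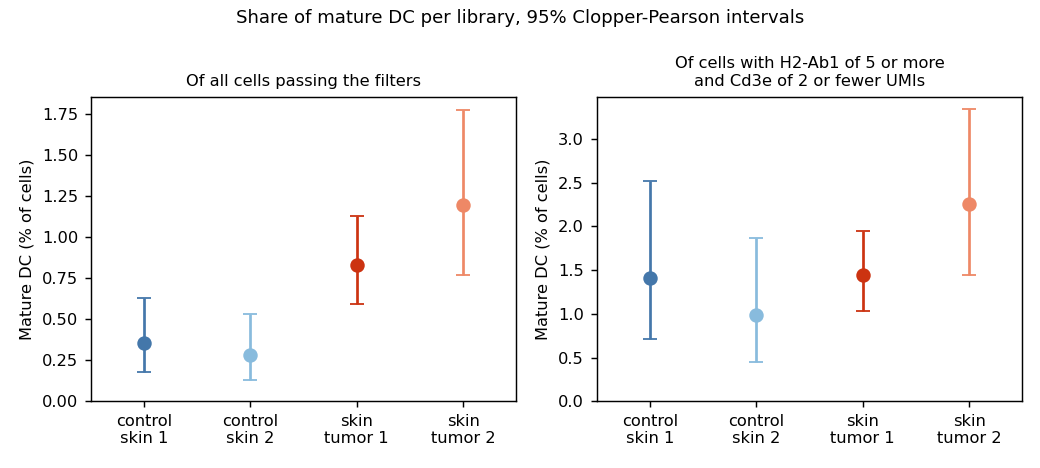
Share of mDC in each library, in percent, with 95% Clopper-Pearson intervals as bars; one panel takes all cells that passed the filters as the denominator and the other the cells with at least 5 H2-Ab1 UMIs and at most 2 of Cd3e. With all cells as the denominator the tumors lie at 0.831% and 1.20% above both controls, and with antigen-presenting cells the intervals overlap.

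Members of the gate differed widely from cell to cell, as the plot of single cells by library shows. Il12b, which encodes the p40 subunit of IL-12 and IL-23, was found in 3, 2, 15 and 9 cells, and 12 of the 84 cells held at least 10 UMIs of it. The 3 richest cells held 100% of the Il12b UMIs in each control skin, 76.3% in skin tumor 1 and 88.8% in skin tumor 2. Ccl17, a chemokine acting on the same receptor as Ccl22, reached 10 UMIs in 14 cells, of which 2 were among the Il12b-rich cells. Ccl5, which attracts T and NK cells, had a median of 1 and 0 UMIs per cell in the control skins and of 16.5 and 15.5 in the skin tumors. It reached 50 UMIs in 20 cells, all of them from tumors, with 12 in skin tumor 1 and 8 in skin tumor 2, and 3 of these 20 were Il12b-rich. Transcripts of the cDC1 genes Xcr1 or Clec9a were found in 0, 1, 15 and 7 cells. Cd207, which encodes langerin, was found in 7 of 11 and 6 of 9 control cells and in 0 of 40 and 0 of 24 cells of the tumors. With 3 UMI-bearing cells as the limit of a count of 0, shares of cells with a Cd207 UMI of up to 7.5% and 12.5% are allowed in these libraries, for counting error only.

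**Figure D2:**
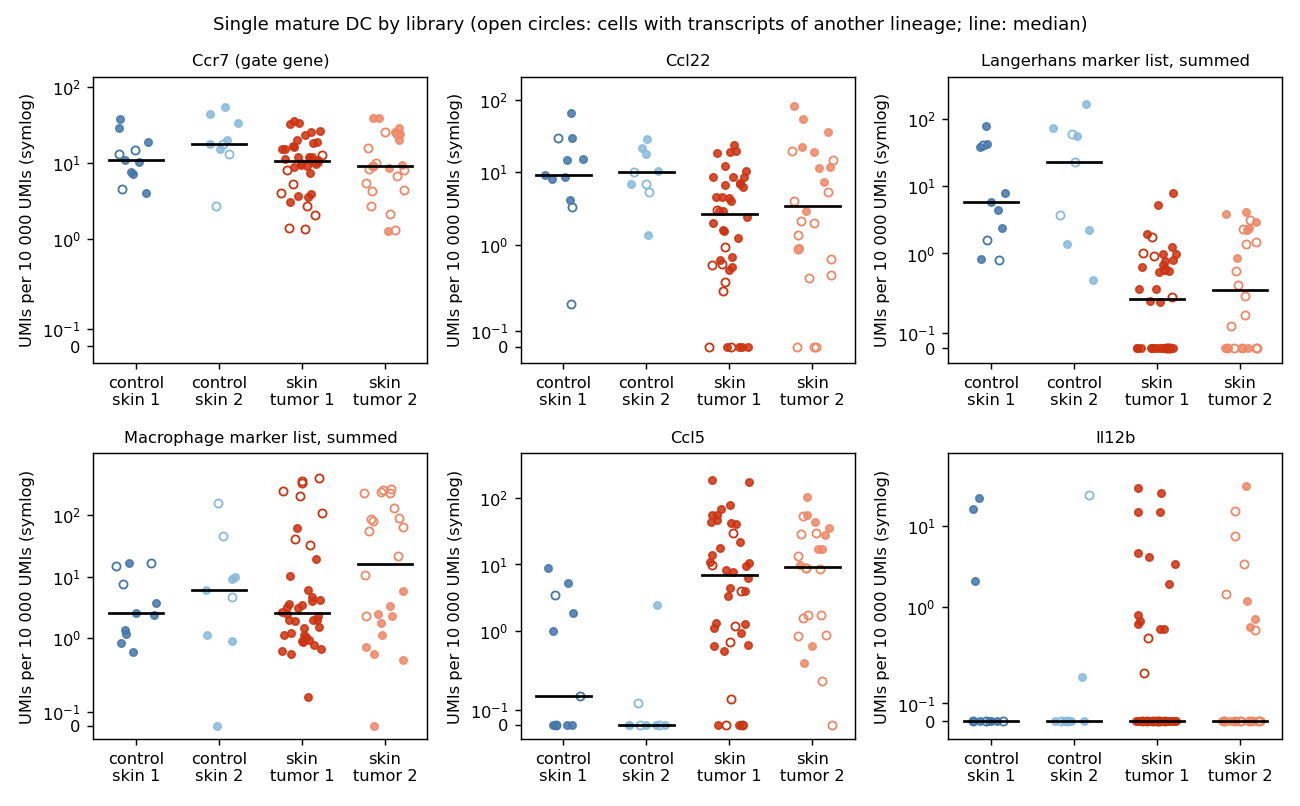
Each point is 1 mDC, with UMIs scaled to a common cell total on a symmetric log axis for Ccr7, Ccl22, the summed Langerhans markers, the summed macrophage markers, Ccl5 and Il12b, by library; open circles mark cells with transcripts of another lineage and lines mark medians. Langerhans markers are high in part of the control cells. In raw counts, before the scaling of the axis, Ccl5 reached 50 UMIs in tumor cells only.

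Summed per library, 5941 genes passed the filter on low counts in the comparison of skin tumors with control skins, and the quasi-likelihood test of edgeR called 29 higher (0.488%) and 43 lower (0.724%), or 72 in all (1.21%), at a Benjamini-Hochberg adjusted p under 0.05. At an unadjusted p under 0.05, 489 were higher (8.23%) and 451 lower (7.59%). Genes with both tumors above both controls made up 24.0% of those tested, and genes with both below made up 23.9%. The falls held 5 of the Langerhans markers, and the rises held 6 genes of the interferon list, the 3 C1q genes and the chemokines Ccl8, Cxcl9 and Cxcl10. The control side rested on 20 cells, and without the 13 control cells marked by Cd207 or Epcam, 1 gene was called higher and 0 lower, with 343 and 150 genes at an unadjusted p under 0.05. Leaving out control skin 1, control skin 2, skin tumor 1 or skin tumor 2 gave 55, 49, 88 and 120 higher and 113, 57, 93 and 183 lower genes. Fewer cells of a kind and less RNA per cell cannot be told apart in such sums.

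**Figure D3:**
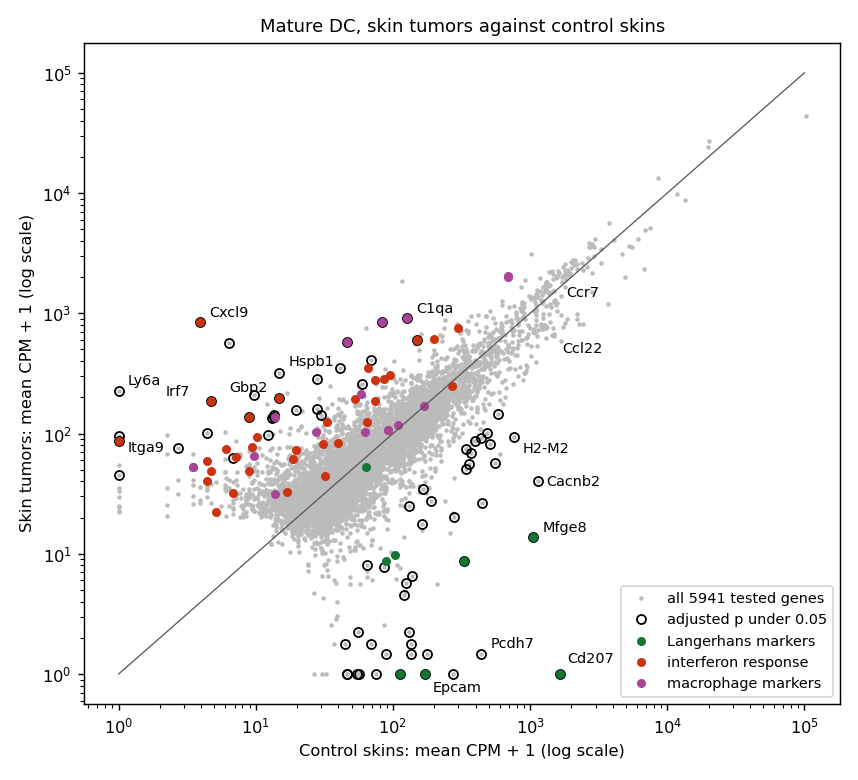
Mean CPM plus 1 of each of the 5941 tested genes in control skins against skin tumors, both on log axes, with the called genes circled and the Langerhans, interferon response and macrophage lists in color. Langerhans genes such as Cd207 lie at the control edge, and Irf7, Gbp2 and Cxcl9 lie on the tumor side.

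Of the 34 gene lists examined, the Langerhans markers had the lowest median fold change. Of 11 listed markers 8 passed the filter, 5 fell, where 0.724% of all tested genes did, and 7 lay below both controls in both tumors, where 23.9% did, with a median log2 fold change of -5.85 against -0.0048 over all tested genes. Their summed level was 2333 and 4848 CPM in the control skins and 78.4 and 119 CPM in the skin tumors. Cd207 (chr6:83671215-83677857, GRCm38) had 348 and 853 UMIs in the controls, or 1175 and 2114 CPM, and no UMI in either tumor. Both controls were thus high and both tumors empty, and the level was at least 976-fold lower in tumors when set against a floor of 3 UMIs over the group (adjusted p = 0.012). Epcam, an adhesion molecule of LC and epithelia, was at 128 and 213 CPM against 0 in both tumors, at least 101-fold lower (adjusted p = 0.0151). Plek2, a pleckstrin family member, was at 81.0 and 141 CPM against 0, at least 65.8-fold lower (adjusted p = 0.0191).

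Other LC markers remained measurable in tumors. Mfge8, which encodes a bridge for apoptotic cell uptake, was at 560 and 1547 CPM in the controls and at 16.1 and 9.27 in the tumors (log2 fold change -6.31, SE 0.66, adjusted p = 0.0164). The tight junction gene Cldn1 was at 209 and 444 CPM against 7.56 and 7.72 (-5.39, SE 0.54, adjusted p = 0.0151). In both genes the lowest control exceeded the highest tumor many times over. Ltc4s was at 84.4 and 119 CPM against 3.78 and 13.9, with an adjusted p of 0.0521, and Cd24a differed little, at 40.5 and 84.3 CPM against 35.9 and 68.0 (adjusted p = 0.824).

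Several genes outside the LC list followed the same pattern. Pcdh7, a protocadherin, was at 368 and 511 CPM in the controls and at 0.945 and 0 in the tumors, a ratio of 768 with a 95% counting interval of 137 to 30440 (adjusted p = 0.0106). Control levels were also lost to 0 tumor UMIs for Atp8b1 (a phospholipid flippase, at least 169-fold), Cacna1e (a calcium channel subunit, at least 43.1-fold), Nbea (a vesicle trafficking protein, at least 31.7-fold), H2-M5 (a nonclassical MHC class I gene, at least 28.5-fold), and Hapln3 and Tshz3 (each at least 26.8-fold). The Atp8b1 bound rests mainly on control skin 2, where cells marked by Cd207 or Epcam held 178 UMIs, against 29 in control skin 1. Scn3a and Rbfox1 kept 1 tumor UMI each, with ratios of 241 (counting interval 42.3 to 9631) and 329 (58.1 to 13100). H2-M2, another nonclassical MHC class I gene, was at 635 and 887 CPM against 90.7 and 95.7 (log2 fold change -3.03, SE 0.34, adjusted p = 0.0180). Without the 13 control cells marked by Cd207 or Epcam, the log2 fold change of H2-M2 turned to 4.03 and did not pass (adjusted p = 0.311). Part of these genes were concentrated in the control cells that the Cd207 or Epcam counts mark. In the 13 control mDC with at least 3 Cd207 or 2 Epcam UMIs, Cd207 was at 2118 UMIs per 1000000, Pcdh7 at 554, Cldn1 at 420 and H2-M2 at 962. In the other 7 control mDC, each of Cd207, Pcdh7 and H2-M2 was at 5.25 and Cldn1 at 15.7, where the Cd207 gap is by construction. Tnfrsf9, the costimulatory receptor 4-1BB, also fell, from 270 and 446 CPM to 47.2 and 61.8 (log2 fold change -2.73, SE 0.39, adjusted p = 0.0331), and its level did not follow the Cd207 and Epcam marks in 1 direction. It was at 295 UMIs per 1000000 in marked and 170 in other cells of control skin 1, and at 381 and 636 in those of control skin 2.

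Cd207 was found in a larger share of control mDC than of T cells, which should lack it, in the same libraries. At 5000 UMIs per cell, 45.5% and 66.7% of control mDC held Cd207 against 11.2% and 8.23% of T-like cells, and both classes were at 0% in both tumors. LC-like cells numbered 448 and 391 in the control skins and 1 and 6 in the skin tumors, so LC and the LC-marked mDC were low in the same libraries. Cd207 was not limited to LC in control skin. It stood at 1371 and 861 CPM in cDC1-like cells of the control skins and at 1.55 and 0 in those of the tumors.

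Interferon-induced genes were higher in both tumors across most of the list, and a minority passed the test. Of 48 listed genes in the files, 35 passed the filter, 6 rose, none fell, and 32 lay above both controls in both tumors, where 0.488% of all tested genes rose and 24.0% lay above. The median log2 fold change was 2.02. Summed levels were 1870 and 1829 CPM in the control skins and 6838 and 6798 CPM in the skin tumors. Without the control cells marked by Cd207 or Epcam, 0 of 34 tested genes of the list were called in either direction, while 32 of the 34 had a positive log2 fold change with a median of 1.51, on 7 control cells. The list includes the chemokines Cxcl9 and Cxcl10. The 6 genes that rose were Cxcl9, Cxcl10, Irf7, Gbp2, Iigp1 and Ifi27l2a.

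Irf7, the transcription factor that amplifies type I interferon, was at 0 and 7.44 CPM in controls and at 214 and 156 in tumors, a ratio of 44.7 with a counting interval of 15.2 to 218 on 3 control UMIs (adjusted p = 0.0234). The GTPase gene Gbp2 was at 20.3 and 7.44 CPM against 219 and 176 (log2 fold change 3.89, SE 0.51, adjusted p = 0.0234). Ifi27l2a was at 138 and 159 CPM against 709 and 494 (2.02, SE 0.34, adjusted p = 0.0491), a call kept in 6 of 14 alternatives (adjusted p from 1.94e-05 to 0.388). For each of the 3 genes both tumors lay well above both controls. Iigp1, an immunity-related GTPase, had no control UMI and was at 101 and 69.5 CPM in tumors, at least 20.8-fold higher (adjusted p = 0.0283). Isg15, a ubiquitin-like modifier, was at 87.8 and 42.1 CPM against 261 and 440 and missed the threshold (adjusted p = 0.0652).

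These genes divided by whether they sat in the cells with another lineage, which numbered 8 of 40 in skin tumor 1 and 14 of 24 in skin tumor 2, so the sets are compared within each tumor. Gbp2 was at 232 UMIs per 1000000 in cells without another lineage and 168 in cells with it in skin tumor 1, and at 111 and 217 in skin tumor 2. Irf7 was at 171 and 268 in skin tumor 1 and at 389 and 41.1 in skin tumor 2, so both genes changed order between the tumors. Isg15 was higher in cells without another lineage in both, at 280.1 against 192 and at 746 against 299.6. Iigp1 was lower there, at 38.6 against 208 and 4.64 against 106, as was Cxcl10, at 62.1 against 213 and 13.9 against 234. With the other-lineage cells left out in all libraries, 22 genes of the list passed the filter and 11 were higher and 0 lower, where 2.11% and 3.44% of the 3078 genes tested in that setting were. Gbp2 then had a log2 fold change of 4.27 (adjusted p = 0.0184, over alternatives 5.66e-11 to 0.304), while Cxcl10 and Iigp1 no longer passed the filter on counts. Gbp2, Irf7 and Isg15 were thus found in tumor mDC on both sides of the other-lineage limits, and Iigp1 and Cxcl10 mainly in the cells above them.

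Chemokine genes gave 3 rises among 14 tested, namely Ccl8, Cxcl9 and Cxcl10, and no falls, where 0.488% of all tested genes rose. Cxcl9 (chr5:92321347-92328079, GRCm38), which draws CXCR3-bearing T cells, was at 3.38 and 2.48 CPM in the control skins and at 300 and 1390 in the skin tumors. The ratio was 250 with a counting interval of 69.0 to 2065, since the controls held 2 UMIs in all (adjusted p = 0.0234). Cxcl10, a ligand of the same receptor, was at 13.5 and 2.48 CPM against 119 and 154 (log2 fold change 4.18, SE 0.62, adjusted p = 0.0371). Skin tumor 2 was the highest library for both, and the tumors lay above the controls without overlap. At 5000 UMIs per cell, Cxcl9 was found in 9.09%, 0%, 35.0% and 56.5% of mDC, against 0.131%, 0.270%, 4.52% and 5.36% of T-like cells. In mDC without another lineage Cxcl9 was at 251 UMIs per 1000000 in skin tumor 1 and 1266 in skin tumor 2, against 358 and 1515 in those with it.

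The promoters of Cxcl9, Cxcl10 and Gbp2, textbook targets of interferon and NF-kB signaling, are shown. These 3 genes rose, as did Irf7 and Ccl8, whose promoters held no match and are not shown. Each run is the 250 bases before the RefSeq start, on the strand of the gene, in build GRCm38.p6, from chr5:92328080-92328329 (-), chr5:92348890-92349139 (-) and chr3:142620413-142620662 (+). Capitals mark matches on either strand to the ISRE core, GAAA and GAAA with 2 free bases between them, or to kappa B letters, either GGGA or GGGG followed by 4 free bases and CC, which can overlap each other.
Cxcl9: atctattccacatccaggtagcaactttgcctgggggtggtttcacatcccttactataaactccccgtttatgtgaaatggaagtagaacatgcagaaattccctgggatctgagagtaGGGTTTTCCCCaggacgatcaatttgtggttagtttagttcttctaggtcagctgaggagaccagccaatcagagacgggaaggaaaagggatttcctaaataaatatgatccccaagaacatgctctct
Cxcl10: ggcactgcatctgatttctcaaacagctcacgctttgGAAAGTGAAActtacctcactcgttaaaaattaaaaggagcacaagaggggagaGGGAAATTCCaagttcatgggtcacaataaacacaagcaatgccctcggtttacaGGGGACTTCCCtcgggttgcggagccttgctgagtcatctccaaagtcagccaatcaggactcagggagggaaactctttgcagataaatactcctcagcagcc
Gbp2: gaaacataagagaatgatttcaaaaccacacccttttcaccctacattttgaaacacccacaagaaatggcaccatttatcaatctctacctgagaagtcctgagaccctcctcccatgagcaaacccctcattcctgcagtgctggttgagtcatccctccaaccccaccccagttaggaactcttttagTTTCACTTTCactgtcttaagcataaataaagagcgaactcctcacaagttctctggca

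The Cxcl10 promoter held an ISRE core from -213 to -204 and 3 kappa B matches, and that of Gbp2 an ISRE core from -59 to -50. That of Cxcl9 held 2 overlapping kappa B matches from -130 to -120. The GAS letters TTCNNNGAA were found in none of the 3. Of 32851 RefSeq promoters of the same length, 2.98% held the ISRE core, 7.02% GAS, 17.6% the kappa B letters that open with GGGA and 16.3% those that open with GGGG. Promoter sequences were found for 5 of the 7 called genes of the interferon and chemokine lists, and those of Ccl8 and Irf7 held none of these letters in the same window. The matches describe letters and were not tied to binding in these data.

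Ccl8, a monocyte-attracting chemokine, was at 3.38 and 7.44 CPM in the controls and at 802 and 326 in the tumors (log2 fold change 6.59, SE 0.71, adjusted p = 0.0164). It sat mainly in cells with another lineage, at 2178 and 498 UMIs per 1000000 in the cells of that kind in skin tumor 1 and skin tumor 2 and at 29.0 and 23.2 in the other cells. Ccl5 was at 203 and 29.7 CPM against 2047 and 1652, the opposite distribution, with 2731 and 3023 UMIs per 1000000 in the cells without another lineage of skin tumor 1 and skin tumor 2 and 494 and 1010 in those with it. Over all mDC Ccl5 did not pass the test (log2 fold change 4.03, SE 0.77, adjusted p = 0.0629), and without the other-lineage cells it did (4.16, adjusted p = 0.0136, over alternatives 1.85e-18 to 0.230). Ccl22 was at 1826 and 1135 CPM against 398 and 886, both tumors below both controls, with a difference that missed the threshold (-1.21, SE 0.46, adjusted p = 0.263). In cells without another lineage it was at 1985 and 1606 UMIs per 1000000 in the controls and at 542 and 1919 in the tumors, so the groups overlapped, with a log2 fold change of -0.69 (adjusted p = 0.478, over alternatives 0.0141 to 0.940). Ccl17 varied more within groups, at 87.8 and 711 CPM in controls and 156 and 255 in tumors (log2 fold change -0.98, adjusted p = 0.614). In control skin 2 a single cell with another lineage held 251 Ccl17 UMIs. Cells without another lineage were at 42.8 and 92.3 UMIs per 1000000 in controls and 226 and 672 in tumors. The log2 fold change then turned to 2.55 and missed the threshold (adjusted p = 0.0583).

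**Figure D4:**
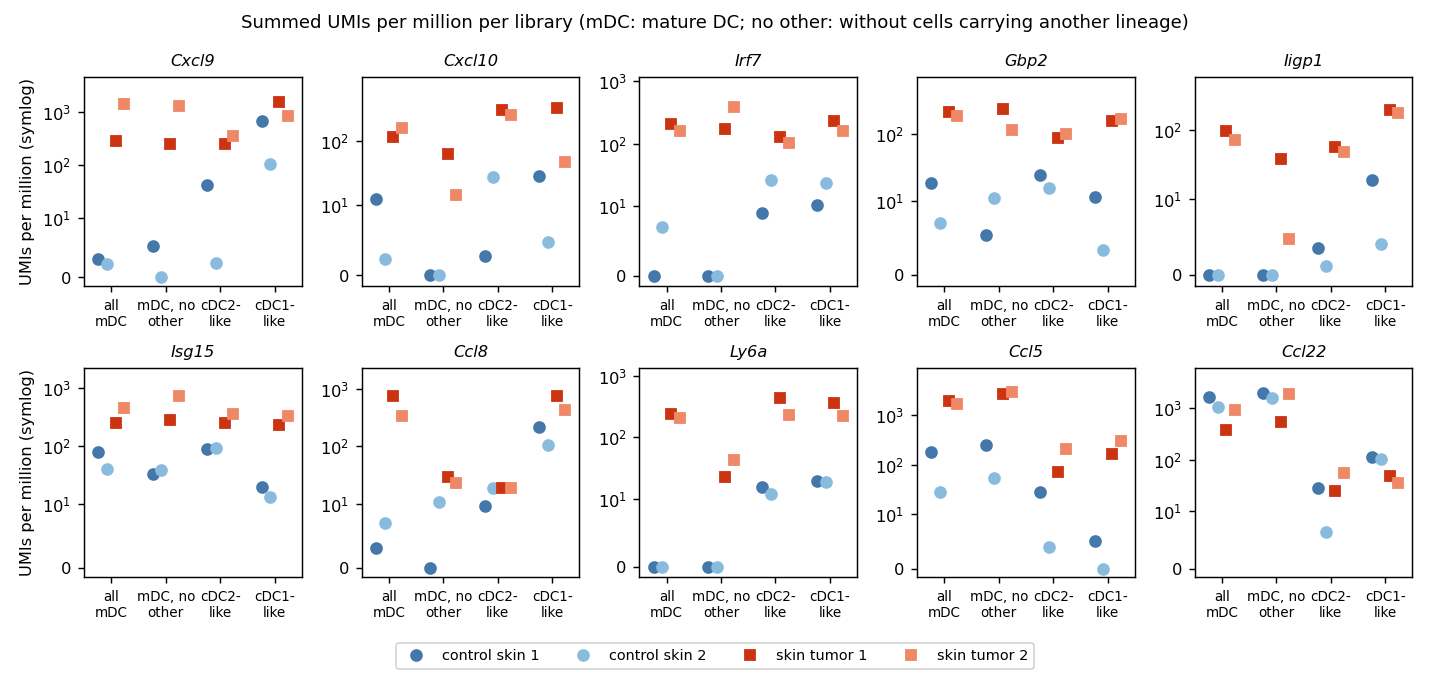
UMIs per 1000000 of Cxcl9, Cxcl10, Irf7, Gbp2, Iigp1, Isg15, Ccl8, Ly6a, Ccl5 and Ccl22 in each library, for all mDC, mDC with no other lineage, cDC2-like and cDC1-like cells. Irf7, Gbp2 and Ccl5 are higher in tumor mDC with and without the other-lineage cells, while Ccl8 and Ly6a are low once these cells are left out.

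Of 15 macrophage genes tested, 3 rose, where 0.488% of all genes did, and 11 lay above both controls in both tumors, where 24.0% of all genes did, with a median log2 fold change of 1.87. Without the other-lineage cells, which were set aside on C1q among other counts, 2 genes of the list passed the filter and 0 were called, with a median of -0.03. The rises were the complement genes C1qa (105 and 146 CPM against 913 and 899), C1qb (57.4 and 107 against 915 and 774) and C1qc (40.5 and 49.6 against 542 and 599), with adjusted p-values of 0.0197, 0.0197 and 0.0151. The summed list was at 787 and 3571 CPM in controls and at 7526 and 7424 in tumors, led by Lyz2. C1qa stood at 2504 and 1396 UMIs per 1000000 in the cells with another lineage of skin tumor 1 and skin tumor 2 and at 19.3 and 18.5 in those without. The split used the C1q genes, so this gap is by construction. Ly6a, the surface antigen Sca-1, and Itga9, an integrin subunit, had no control UMI and were at 251.3 and 199 CPM and at 86.0 and 102 CPM in tumors, at least 54.0-fold and 21.5-fold higher. Among the other marker lists, T cell genes summed to 584 and 362 CPM in controls and 156 and 412 in tumors, led by Il7r, regulatory T cell genes to 203 and 114 against 287 and 425, led by Il2ra, and neutrophil genes to 331 and 726 against 101 and 1092, led by Il1r2. None of these lists had a call, and their part in the results was not tested. Ly6a and Itga9 were concentrated in the other-lineage cells, Ly6a at 657.5 against 22.1 UMIs per 1000000 in skin tumor 1 and 290 against 41.7 in skin tumor 2, and Itga9 at 237 against 1.38 and 159 against 0.

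Further rises included a maturation gene and a heat shock gene. Bcl2l14, a member of the maturation list and of the Bcl-2 family, was at 57.4 and 22.3 CPM against 421 and 280 (log2 fold change 3.18, SE 0.50, adjusted p = 0.0422) and was higher in tumor cells without another lineage, at 544 against 137 UMIs per 1000000 in skin tumor 1 and 561 against 145 in skin tumor 2. Hspb1, a small heat shock protein gene, was at 20.3 and 7.44 CPM against 373 and 263 (4.58, SE 0.52, adjusted p = 0.0180), at 247 against 568 and 153 against 331 UMIs per 1000000 in these cell sets. Slc4a8, a bicarbonate transporter, was at 20.3 and 4.96 CPM against 145 and 137, Arhgap28, a GTPase-activating protein gene, at 33.8 and 19.8 against 381 and 187, and both rose (adjusted p = 0.0422 and 0.0385). Pde4c, a phosphodiesterase gene, rose from 1 control UMI to 124, a ratio of 50.9 with an interval of 8.96 to 2024. The maturation list as a whole had 1 rise (Bcl2l14) and 1 fall (H2-M2) among 29 tested genes, with a median of 0.34, and the cytokine list 1 fall (Tnfrsf9) among 19, where 0.488% of all tested genes rose and 0.724% fell. Of the 30 maturation genes 27 lay outside the gates, so the count and median of that list draw in part on genes used for gating. Dissociation-induced genes gave no call among 23 tested, with 5 higher and 4 lower at an unadjusted p under 0.05 and a median of 0.47, while 12 of the 23 lay above both controls in both tumors and 5 below, where 24.0% and 23.9% of all tested genes did. The list summed to 15150 and 11750 CPM in controls and 17200 and 20360 in tumors, led by Hspa8, and its part in the other results was not tested.

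Stimulatory and regulatory ligands gave no call. Of the costimulation list 0 of 11 tested genes passed, with 1 higher and 3 lower at an unadjusted p under 0.05, and of the regulatory list 0 of 19, with 5 and 2, where 8.23% of all tested genes were higher and 7.59% lower. Cd40, the receptor for T cell help, was at 189 and 119 CPM in controls and at 236 and 338 in tumors (log2 fold change 0.90, SE 0.37, adjusted p = 0.307). Cd274, which encodes PD-L1, was at 928 and 473 CPM against 848 and 886 (0.31, SE 0.38, adjusted p = 0.744). Cd86, a CD28 ligand, was at 1965 and 1016 CPM against 583 and 772, and Cd200 at 47.3 and 57.01 against 243 and 100, without overlap in either gene and without passing. Dpp4, the protease CD26, was at 33.8 and 7.44 CPM against 220 and 84.9 (2.98, SE 0.74, adjusted p = 0.117), and it passed once the other-lineage cells were left out (3.25, adjusted p = 0.0233, over alternatives 5.62e-07 to 0.483).

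Antigen presentation genes gave no call. All 18 genes of the MHC class I list were tested and none was called, with 9 higher and 0 lower at an unadjusted p under 0.05, where 8.23% of all tested genes were higher, 12 above both controls in both tumors, where 24.0% were, and a median of 0.81. B2m, the light chain of class I, was at 3119 and 2231 CPM against 4195 and 3512. None of 13 MHC class II genes was called, with 1 and 1 at an unadjusted p under 0.05, 5 above and 6 below both controls in both tumors and a median of -0.07. These 13 include H2-Ab1, on which the cells were gated, and 12 lay outside the gates. Cd74, the invariant chain, was at 14540 and 12310 CPM against 9410 and 8124. Lists of JAK and STAT3 signaling (17 tested, median -0.24), NF-kB and CD40 signaling (22, -0.11), dendritic cell transcription factors (20, -0.09), chemokine receptors (7, -0.36), glycolysis and hypoxia (17, 0.16) and cell cycle (6, -0.96) also gave no call in either direction. In those lists 1, 1, 1, 1, 2 and 0 genes were higher and 1, 2, 3, 2, 2 and 1 lower at an unadjusted p under 0.05. The chemokine receptor list is led by Ccr7, on which the cells were gated, so its values are in part set by the gate. Of the lectins and uptake receptors 1 of 17 fell, where 0.724% of all tested genes did, and none rose. The fall was the scavenger receptor Cd36, at 142 and 117 CPM against 19.8 and 27.8 (log2 fold change -2.45, SE 0.39, adjusted p = 0.0422). Most of that list leaned higher, with a median of 1.59 and 9 genes higher and 3 lower at an unadjusted p under 0.05. In both tumors 10 of its genes lay above both controls and 4 below. The cDC1 marker list summed to 716 and 808 CPM in controls and 1394 and 1276 in tumors, with Irf8 as its most abundant gene, and the cDC2 list to 1107 and 942 against 515 and 985. Neither had a call among 8 tested genes, with 4 and 1 higher and 0 and 2 lower at an unadjusted p under 0.05, where 8.23% and 7.59% of all tested genes were.

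The mDC were also set against cDC2-like cells (at least 2 Cd209a UMIs, no Xcr1 or Clec9a UMI, at most 5 of the C1q genes and at most 2 of Cd207, numbering 59, 87, 121 and 38) and cDC1-like cells (at least 3 Xcr1 and Clec9a UMIs, numbering 32, 49, 176 and 35), to show which genes accompany Ccr7 and Fscn1. Cells with many Cd207 or C1q UMIs were thus kept out of the cDC2-like class and not out of the mDC. The fits kept the library as a block and used 3 libraries, since control skin 2 had fewer than 10 mDC. Since the gate itself set these cells apart, genes that travel with Ccr7 were favored by it, and the counts and fold changes below describe the gated cells without testing them. Against cDC2-like cells 281 of 7231 genes were higher (3.89%) and 129 lower (1.78%). Against cDC1-like cells 589 of 7792 were higher (7.56%) and 413 lower (5.3%). Without skin tumor 1 the counts fell to 49 and 7 and to 279 and 137, without skin tumor 2 to 97 and 23 and to 462 and 246, and without control skin 1, which leaves both tumors, they were 688 and 425 and 748 and 477.

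The maturation list, without the genes of the gates, was higher in mDC for 23 of 26 tested genes against cDC2-like cells and for 25 of 26 against cDC1-like cells, with median log2 fold changes of 3.83 and 2.82. Nudt17, a nudix hydrolase gene, was at 62.2, 36.2, 120 and 78.9 CPM in mDC of control skin 1, control skin 2, skin tumor 1 and skin tumor 2, and held 1 UMI in all cDC2-like cells and 0 in all cDC1-like cells. Apol7c, an apolipoprotein L family gene, held 46, 4, 49 and 63 UMIs in mDC and 0 in cDC2-like cells. Tmem123, a surface protein also called porimin, was at 1220, 855, 1307 and 737 CPM in mDC and at 175, 180, 151 and 170 in cDC2-like cells (log2 fold change 2.69, SE 0.26). It did not differ detectably between tumor and control mDC (-0.03, SE 0.38, adjusted p = 0.980). Socs2, an inhibitor of cytokine receptor signaling, had log2 fold changes of 5.05 and 4.74 against cDC2-like and cDC1-like cells. Every library showed the higher level in mDC for these 4 genes. Clu, Lad1 and Slco5a1 held 0 or 1 UMI per library in the other classes and were also among the largest rises against both.

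Effector and regulatory genes were part of the difference. Il12b was at 344, 256, 330 and 320 CPM in mDC against 0.794, 0, 0.431 and 0 in cDC2-like cells (log2 fold change 9.17, SE 0.44). Few cells supplied these UMIs. In control skin 2, 105 Il12b UMIs came from 1 cell with another lineage, and the mDC without another lineage held 1 UMI. The mDC without another lineage held 105 Il12b UMIs in control skin 1, 350 in skin tumor 1 and 119 in skin tumor 2. Ccl22 was higher by 4.61 (SE 0.43) and 3.88 (SE 0.34) on the log2 scale against cDC2-like and cDC1-like cells, and Ccl5 by 3.54 and 3.51. Il4i1, an enzyme that breaks down phenylalanine and tryptophan, was at 373, 346, 319 and 231 CPM in mDC against 1.17, 0.720, 2.45 and 2.07 in cDC1-like cells (7.08, SE 0.34) and was 2.80 higher than in cDC2-like cells. Cd200, a ligand of an inhibitory myeloid receptor, was higher by 4.91 and 4.59, and Cd40 by 1.88 and 2.07. Tnfsf4, the OX40 ligand, was higher by 5.34 and 4.14. Its UMIs in control skin 1 came to 108, all of them in 2 cells, and in control skin 2 to 0. Cd274 was higher by 1.64 (SE 0.28) than in cDC1-like cells and by 0.86 (SE 0.20) than in cDC2-like cells, where it missed the threshold.

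Signaling and marker lists are read against all tested genes, of which 3.89% were higher and 1.78% lower against cDC2-like cells and 7.56% and 5.3% against cDC1-like cells. Of 22 genes of NF-kB and CD40 signaling, 7 were higher against cDC2-like and 17 against cDC1-like cells, including Relb, the subunit of the alternative NF-kB pathway, by 2.16 and 2.496. Of the cell cycle list 12 of 14 genes were lower than in cDC1-like cells and 3 of 8 lower than in cDC2-like cells. Mki67 was at 20.5, 67.2, 53.8 and 23.3 CPM in mDC and at 121, 93.6, 93.5 and 173 in cDC1-like cells (log2 fold change -1.91, SE 0.41). Of the cDC2 markers outside the gate 5 of 10 were lower than in cDC2-like cells, among them the lectins Mgl2 (-3.12) and Clec10a (-2.73), and of the cDC1 markers 5 of 8 were lower than in cDC1-like cells. Ccl4, an inflammatory chemokine, was lower against both (-3.29 and -1.62). MHC class II genes were lower for 2 and 3 of 12, namely H2-DMa and H2-DMb1 against both and March1 against cDC1-like cells.

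**Figure D5:**
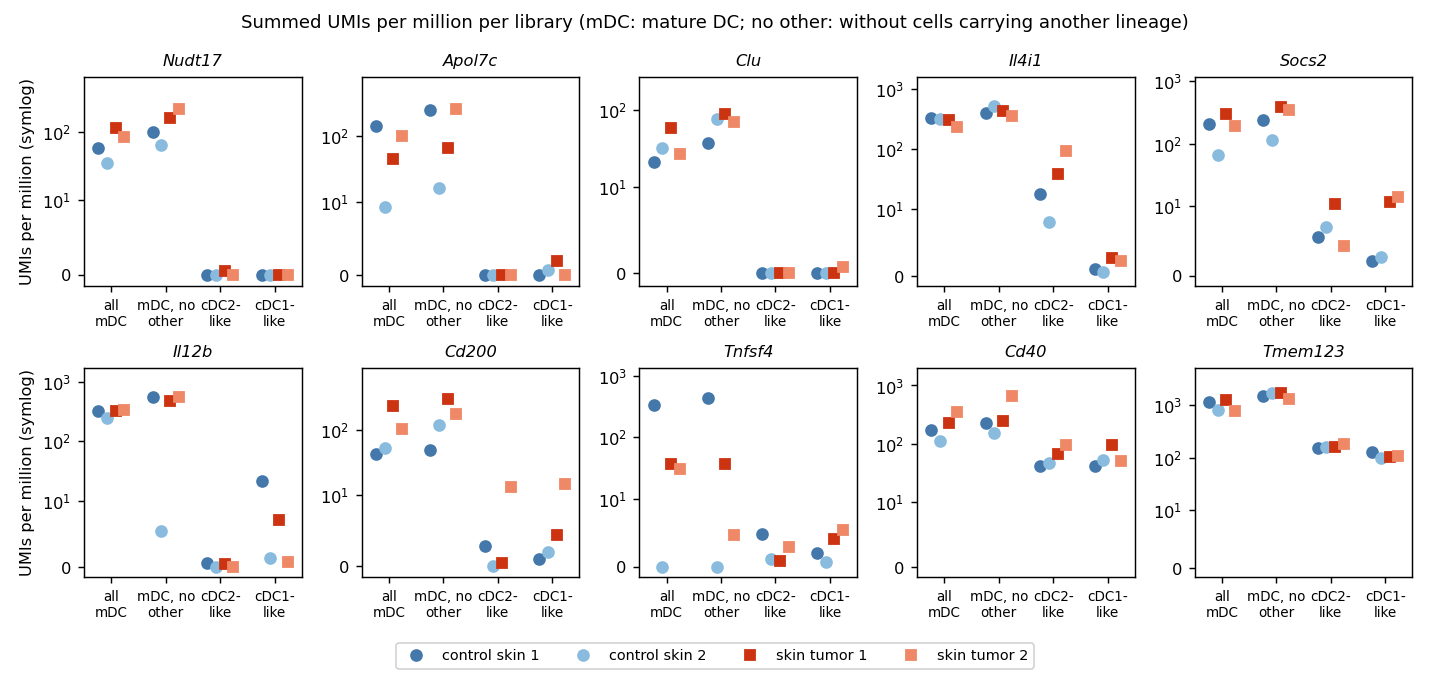
UMIs per 1000000 of Nudt17, Apol7c, Clu, Il4i1, Socs2, Il12b, Cd200, Tnfsf4, Cd40 and Tmem123 in each library, for all mDC, mDC with no other lineage, cDC2-like and cDC1-like cells. Nudt17, Il4i1, Socs2 and Tmem123 are higher in mDC than in both other classes in each of the 4 libraries.

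Whether the tumor change of mDC differed from that of the other dendritic cells was fitted as an interaction in the same 3 libraries. Since these hold 1 control skin, the spread came from the 2 tumors alone, and the control skin is assumed to vary like them. Against cDC2-like cells 186 of 9020 genes had a higher tumor effect in mDC (2.06%) and 114 a lower one (1.26%), and against cDC1-like cells the counts were 66 (0.692%) and 54 (0.566%) of 9538. With all 4 libraries they came to 33 and 37 and to 1 and 1, an alternative chosen after the data were seen. The interferon list gave 2 of 48 genes with a higher effect against cDC2-like cells, Cxcl9 and Gbp4, and 1 against cDC1-like cells, Cxcl9, and with all 4 libraries it gave 0 and 0. Without the other-lineage mDC as well, it gave 1 of 46 and 2 of 45, where 17 of 7463 and 34 of 8225 tested genes were called higher. The medians of the list were then 1.11 and 0.73, against 0.065 and 0.044 over all tested genes. Cxcl9 in cDC1-like cells stood at 772 and 112 CPM in the controls and at 1347 and 742 in the tumors, so its control level there was far above the 3.36 and 2.43 CPM of mDC. Epcam stood at 6.997 and 8.23 CPM in cDC2-like cells of the controls and at 5.198 and 9.47 in those of the tumors. The Cd207 limit of that class kept such cells out of it, while Epcam of control mDC sat in the cells marked by Cd207 or Epcam, so this contrast is in part set by the gates and its test is not used. Against cDC1-like cells, where Epcam went from 241 and 129 CPM to 2.24 and 7.44, the difference missed the threshold (adjusted p = 0.248).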

How the data were processed

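The authors deposited raw, unnormalized UMI counts as 1 gene-by-cell matrix a library, made per the labels with Cell Ranger 7.1.0 on mm10, and no cell annotation. Counts were read as sparse matrices, and 31011 of 31053 gene identifiers were found in the GRCm38 annotation. The gate is given above, and no doublet caller was run. Counts of gated cells were summed per library (326126 to 1104990 UMIs), filtered with filterByExpr, scaled by TMM and fitted with the quasi-likelihood test of edgeR 4.0.16 in R 4.3.3, with limma 3.58.1. P-values were adjusted by Benjamini-Hochberg over all tested genes. DESeq2 1.42.0, other filters, other gates, thinning, left-out cells and libraries and a replicate block were alternatives. CPM values use the TMM-scaled totals of each fit, and fold changes of genes with few UMIs depend on the prior count. Means over groups have n = 2. Shares were compared by an exact permutation test.

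Detection was read after thinning to 5000 UMIs per cell, leaving out shallower cells. The fits were tested on simulated data. Named genes were those of the gate and of the study's dendritic cell figures, the 12 largest called rises and falls on 1 side of both controls, up to 4 called and 3 abundant genes of each of 34 lists (509 genes, 8 absent from the files), and the 8 largest per direction in cell type comparisons. Other genes named (Cd86, Cd200, Ltc4s, Cd24a, Prkcb, Gbp4, Socs2 and further members of lists) were chosen after their values were seen. Members, lists and tests were chosen with earlier results of these data known. Some items are not reported here.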

Additional observations from a re-analysis of the deposited data

Results flagged for a closer look

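The interaction fit of edgeR called a tumor effect, as the log2 change from control skins to skin tumors, that differed between mDC and cDC2-like cells in 33 genes upward and 34 downward both with the 3 libraries of the fit and with all 4, the latter chosen after the data were seen. Between mDC and cDC1-like cells it did so in 1 gene each way. The 6 genes given for cDC2-like cells are those of the 8 largest differences in each direction that were called in both fits. The 3 libraries hold 1 control skin, so their spread came from the tumors alone. Against cDC2-like cells the difference for Ecm1, an extracellular matrix gene, was 10.55 with the 3 libraries and 5.11 with all 4. With the 3 libraries it was -11.80 for Atp8b1, -10.91 for Nbea, -9.92 for Epcam, -9.01 for Osbp2, an oxysterol binding protein gene, and -7.87 for the tight junction gene Ocln. Against cDC1-like cells it was 6.16 for Ccl8 and -3.12 for Prkcb, a protein kinase C gene named after its values were seen.

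The 6 differences from cDC2-like cells are given as a description, without a test, since the gates were unequal. The cDC2-like gate allowed at most 2 Cd207 and 5 C1q UMIs and that of mDC had no such limits. In control mDC marked by Cd207 or Epcam and in other control mDC, pooled over both controls (13 and 7 cells), Atp8b1 was at 365 and 5.25 UMIs per 1000000, Epcam at 217 and 5.25, Osbp2 at 166 and 0, Ocln at 81.2 and 5.25 and Nbea at 67.1 and 5.25, with marked cells higher in each control. The Epcam gap is by construction, since Epcam counts helped to mark the cells. Ecm1 of tumor mDC sat in cells with another lineage, at 28.9 and 33.8 UMIs per 1000000 in skin tumor 1 and skin tumor 2, against 4.14 and 0 in the other cells.

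Ecm1 stood at 0, 9.41, 12.6 and 21.0 CPM in mDC of control skin 1, control skin 2, skin tumor 1 and skin tumor 2, and at 73.9, 84.2, 3.90 and 13.5 CPM in cDC2-like cells, where both tumors lay below both controls. Osbp2 stood at 129, 127, 0 and 1.499 CPM in mDC and never above 3.03 CPM in cDC2-like cells. Prkcb stood at 507, 496, 97.9 and 63.3 CPM in mDC and at 111, 104, 170 and 137 CPM in cDC1-like cells. It too was higher in the marked control mDC, at 696 against 108 UMIs per 1000000 in control skin 1 and 549 against 16.3 in control skin 2. Ccl8 stood at 3.36, 7.29, 799 and 326 CPM in mDC and at 241, 110, 689 and 374 CPM in cDC1-like cells. Genes with no UMI in a group have a fitted difference that depends on the prior count. With all 4 libraries and without the other-lineage mDC, the difference from cDC2-like cells was -11.79 for Atp8b1, -10.52 for Osbp2, -10.13 for Epcam, -9.97 for Nbea, -7.18 for Ocln and 2.28 for Ecm1. Against cDC1-like cells it was then -3.51 for Prkcb (adjusted p = 0.00618, over alternatives 0.00256 to 0.0213) and 0.39 for Ccl8 (0.965, over 0.00147 to 0.965).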

How the results depend on the processing

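The higher share of mDC in tumors kept its direction under every alternative run, at 2.62 to 3.76 times when each library was left out in turn and 2.49, 2.70, 2.61 and 1.54 times with the gate on thinned cells, under the stricter gate, without other-lineage cells and among antigen-presenting cells. The 29 higher and 43 lower genes became 83 and 116 by the Wald test of DESeq2, 332 and 349 without a filter on low counts, and 72 and 83 under the cell filters of the study. Without the other-lineage cells they were 65 and 106, under the stricter gate 26 and 25, and without the control cells marked by Cd207 or Epcam 1 and 0. Leaving out 1 library at a time gave 49 to 120 higher and 57 to 183 lower genes, where the lone library of a group is assumed to vary like the others. With the replicate number as a block the counts were 110 and 137. Same-numbered libraries deviated together with a correlation of 0.0602 over 5941 genes. Only 2 pairs existed, so this value cannot tell whether the numbers pair the libraries.

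Of the alternatives for named genes in this comparison, 480 kept direction and side of the threshold, 27 passed it newly, 43 lost it and 13 reversed. H2-M2 reversed to 4.03 without the marked control cells. Ccl17 reversed to 1.21 without control skin 2, 1.53 under the stricter gate, 1.096 under the study's filters, 2.55 without other-lineage cells and 0.68 without the marked cells. Cd274 turned to -0.11 without control skin 2, -0.078 without other-lineage cells and -0.59 without the marked cells. Tmem123 turned to 0.046 without a filter, 0.28 without control skin 1, 0.33 without skin tumor 2 and 0.0043 after thinning. With a library left out, Ccl17 ranged from -1.78 to 1.21, Cd274 from -0.11 to 0.90 and Tmem123 from -0.47 to 0.33. Their causes were not tested.

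Against cDC2-like cells the 281 higher and 129 lower genes became 531 and 518 without other-lineage mDC, 362 and 243 with all 4 libraries, 620 and 580 with both changes, and 49 to 688 and 7 to 425 when a library was left out. Against cDC1-like cells the 589 and 413 became 697 and 637 without other-lineage mDC, 528 and 375 with all 4 libraries, and 279 to 748 and 137 to 477 when a library was left out. The interaction counts of 186 and 114 became 33 and 37 with all 4 libraries and 17 and 41 without other-lineage mDC as well, and those of 66 and 54 became 12 and 18 with DESeq2 size factors, 1 and 1 with all 4 libraries and 34 and 58 without other-lineage mDC as well. The alternatives with all 4 libraries were chosen after the data were seen. No named gene reversed in these 4 comparisons. Interactions with a library left out were not run, since 1 control library enters them. With 7 to 20 control cells behind the sums, the depth limits the comparison most in genes of few UMIs.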
